A study of Mus musculus with 8 samples.

Results

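The immunoglobulin light-chain clonotypes of recipient cells and of trafficked maternal cells were examined in 8 pooled RNA libraries of pups aged 1 week. A clonotype is a receptor rearrangement that MiXCR assembled around a CDR3, the stretch that spans the join of a V and a J segment. Members were all clonotypes whose best J hit was an IGKJ (kappa) or an IGLJ (lambda) segment, and 2751 of the 14428 clonotypes of all chains met this rule (19.1%). They were 2561 kappa and 190 lambda clonotypes. The best V hit named the same chain as the best J hit in all 2751. The constant region, which the rule did not use, was IGKC in 2533 of the 2561 kappa clonotypes and a lambda constant segment in 184 of the 190 lambda clonotypes.

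The pups were F1 mice with a BALB/c sire and a CD11c-DTR dam, which has the C57BL/6 (B6) background and carries a diphtheria toxin (DT) receptor under the Itgax (CD11c) promoter, so that DT removes CD11c+ dendritic cells (DC) of the dam. In DC control mIUT (7 pups), dams were given saline and the fetuses received 5000000 B6 bone marrow mononuclear cells on embryonic day 14. In DC control pIUT (5 pups) the dams were likewise given saline and the donor cells were of BALB/c bone marrow, and in DC-depleted pIUT (5 pups) the dam was given 5 ng/g DT on embryonic day 13 before the same BALB/c cells. The 17 uninjected pups received no donor cells, came from dams with or without DT, and how they divide between these is not given in the sources used here. Trafficked maternal cells were sorted by H2K-b and recipient cells by H2K-d, after magnetic enrichment of whole-body mononuclear cells. Cells of an F1 pup carry both haplotypes. The B6 donor cells of mIUT carry H2K-b too, and the BALB/c donor cells of pIUT carry H2K-d. The saline groups DC control mIUT and DC control pIUT are named mIUT and pIUT in what follows. Each origin and treatment was a single pool of pups and a single library, so no value below has a replicate and no difference between treatments was tested. Shares are given with Wilson 95% intervals, which cover counting error only, since reads without molecular identifiers are not independent molecules. Where intervals are said to overlap or not, this compares the libraries and not the conditions. The 2 uninjected libraries held large clonotypes in common, 43 of the 57 light-chain clonotypes of the recipient library, and the number of shared clonotypes, their features and the comparison with other chains are given with and without them.

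An antibody pairs heavy chains with kappa or lambda light chains. A light-chain gene is made by joining a V segment directly to a J segment, without a D segment, in bone marrow or fetal liver B-cell precursors once the heavy chain has been made. The recombinase of RAG1 and RAG2 cuts the segments, exonucleases trim their ends, and terminal deoxynucleotidyl transferase, which is scarce in fetal life and is turned down by the time light chains are joined, can add bases that neither segment encodes. The kappa locus holds many V segments and is usually joined before lambda, and the mouse uses kappa for most of its antibodies. A cell whose receptor is non-functional or self-reactive can join a further V to a further J, a process named receptor editing. The question for these libraries was how the repertoires of maternal and recipient cells compare after injection and after DC depletion.

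The germline ends that meet in the leading joins are shown first, since the most widely shared clonotypes can be read off from them. They were taken from GRCm39, on the coding strand, V ends in lower case from the first CDR3 base to the end of the segment, and J starts in capitals up to the last CDR3 base. IGLV1 (chr16:18903767-18904250, minus strand) joins to IGLJ1 (chr16:18881975-18882012, minus strand), and IGKV1-117 (chr6:68098030-68098811, plus strand) and IGKV10-96 (chr6:68608947-68609426, minus strand) to IGKJ1 (chr6:70699546-70699583, plus strand) or IGKJ2 (chr6:70699900-70699942, plus strand).
IGLV1 end: tgtgctctatggtacagcaaccatttc
IGLJ1 start: CTGGGTGTTC
IGKV1-117 end: tgctttcaaggttcacatgttcctcc
IGKV10-96 end: tgccaacagggtaatacgcttcctcc
IGKJ1 start: GTGGACGTTC
IGKJ2 start: TGTACACGTTC

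The CDR3 sequences of the largest light-chain clonotype in each library follow, with the bases assigned to V in lower case and the bases that come from J in capitals. The IGKV1-117 clonotype was the largest in both uninjected libraries, and the IGKV1-135 (chr6:67586697-67587492, plus strand) clonotype in maternal pIUT and in recipient mIUT, so the 8 libraries had 6 leading clonotypes. None of the 6 holds an inserted base, and all 6 match the germline of their segments on both sides of the join.
IGKV1-117 with IGKJ2: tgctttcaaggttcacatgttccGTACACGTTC
IGKV8-21 with IGKJ2: tgcaagcaatcttataatcttccACGTTC
IGKV1-135 with IGKJ1: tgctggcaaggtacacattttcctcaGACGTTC
IGKV6-32 with IGKJ5: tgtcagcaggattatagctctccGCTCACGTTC
IGLV1 with IGLJ1: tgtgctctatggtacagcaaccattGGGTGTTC
IGKV10-96 with IGKJ1: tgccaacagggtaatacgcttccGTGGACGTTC

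Light-chain clonotypes were most numerous in the maternal uninjected library, with 1358 kappa and 104 lambda. Among trafficked maternal cells after injection there were 13 kappa and 2 lambda clonotypes after mIUT, 8 kappa and 0 lambda after pIUT, and 54 kappa and 6 lambda after DC-depleted pIUT. All 3 injected maternal libraries thus lay far under the uninjected one. In recipient cells the order was the other way. There were 47 kappa and 10 lambda clonotypes in uninjected pups, 134 and 13 after mIUT, 341 and 25 after pIUT, and 606 and 30 after DC-depleted pIUT.

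The reads behind these clonotypes did not follow the same order. The maternal uninjected library held 277239 light-chain reads, 82.0% of the 337977 reads of all libraries, against 3241 after mIUT, 1044 after pIUT and 769 after DC-depleted pIUT. The recipient uninjected library held 42504 light-chain reads in only 57 clonotypes, while recipient mIUT, pIUT and DC-depleted pIUT held 1069, 5896 and 6215. Recipient uninjected cells therefore had the fewest clonotypes of the recipient libraries and the most reads. Total counts on genes lay between 38543457 and 47965130 per library, a far narrower range than that of the light-chain reads. Scaled to the same library total as counts per gene (CPM), the light-chain reads came to 7190 in maternal and 886 in recipient uninjected cells, 19.95 to 72.7 in the other maternal libraries and 25.7 to 150 in the other recipient libraries.

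At an equal 769 light-chain reads, the depth of the smallest library, the expected number of clonotypes was 347 in the maternal uninjected library, 13.2 after mIUT, 7.74 after pIUT and 60.0 after DC-depleted pIUT. In recipient libraries it was 44.4 for uninjected pups, 143 for mIUT, 249.9 for pIUT and 339 for DC-depleted pIUT. The opposite direction in maternal and recipient cells thus remained at equal depth. The 10 largest clonotypes held 15.0% of light-chain reads in the maternal uninjected library, 99.1% after mIUT, 100% of the 8 clonotypes after pIUT and 36.02% after DC-depleted pIUT. They held 62.0% in recipient uninjected cells, against 22.2%, 17.995% and 13.9% in recipient mIUT, pIUT and DC-depleted pIUT.

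**Figure D1:**
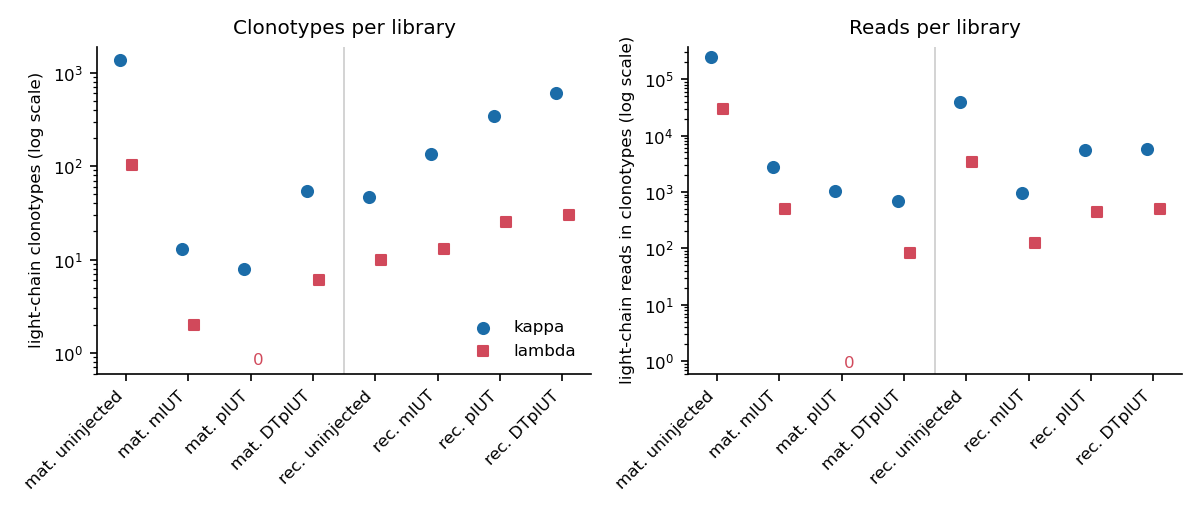
Light-chain clonotypes (left) and the reads assigned to them (right) in each library, both on a log scale, for kappa (circles) and lambda (squares); mat. and rec. stand for maternal and recipient cells, DTpIUT for DC-depleted pIUT. Kappa clonotypes ran from 8 to 1358, and the 0 marks maternal pIUT, where no lambda clonotype was found.

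The gene table gave a separate reading of light-chain RNA. Igkc (chr6:70703419-70703950), the only kappa constant gene, had 6124 CPM in the maternal uninjected library, then 65.6 after mIUT, 27.7 after pIUT and 16.5 after DC-depleted pIUT. In recipient cells Igkc had 834 CPM in uninjected pups, 20.9 after mIUT, 127 after pIUT and 139 after DC-depleted pIUT. The order of the libraries by Igkc on this scale was that of their kappa reads in clonotypes. With TMM or DESeq2 factors recipient pIUT (112 and 103) lay above DC-depleted pIUT (105 and 99.3), and recipient mIUT (30.3 and 28.1) above maternal pIUT (21.6 and 24.8). Of 5 B-cell markers, Ms4a1, Cd79a, Cd79b and Cd22 were lower in all 6 injected libraries than in the uninjected library of the same origin, and Pax5 was not, with 1 count in recipient uninjected cells and 10 after DC-depleted pIUT. Among the injected maternal libraries the markers were divided. Cd79a (92.9, 11.2 and 8.12 CPM after mIUT, pIUT and DC-depleted pIUT) and Cd79b (156, 42.2 and 11.8 CPM) fell in the order of Igkc. Ms4a1, with 0.0224, 0.177 and 3.94 CPM, and Cd22, with 0.0673, 0 and 1.89 CPM, did not follow Igkc. The summed level of the 5, most of it from Cd79a and Cd79b in every library, was 6209 CPM in the maternal uninjected library and 25.8 to 249 in the injected maternal libraries, and 1096 CPM in the recipient uninjected library against 44.2 to 279 in the injected ones. Cd79a, a signalling chain of the B-cell receptor, had 313 to 96352 counts, whereas Pax5, which fixes B-cell identity, had 161 counts in maternal uninjected cells and 0 in the remaining 5 libraries. Ms4a1, which encodes CD20 of mature B cells, had 1 count in maternal mIUT and 7 in maternal pIUT. Fewer B cells and less immunoglobulin RNA per B cell cannot be told apart in pooled RNA. The summed level of 7 plasma cell genes was 646 CPM in maternal uninjected cells and 108 to 386 CPM in the other libraries, most of it from Xbp1 and Mzb1, which other secretory and lymphoid cells use too. Of these 7, Tnfrsf17 had 7 counts or fewer in every library and Jchain, which links IgM and IgA, had 991 counts in maternal uninjected cells, 142 in recipient DC-depleted pIUT, 21 in recipient pIUT and 0 elsewhere.

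Kappa chains made up most light-chain clonotypes in every library. Their share was 92.9% (91.5 to 94.1) in the maternal uninjected library, 86.7% (62.1 to 96.3) after mIUT, 100% of 8 after pIUT and 90% (79.9 to 95.3) after DC-depleted pIUT. In recipient cells it was 82.5% (70.6 to 90.2) in uninjected pups, 91.2% (85.5 to 94.8) after mIUT, 93.2% (90.1 to 95.3) after pIUT and 95.3% (93.3 to 96.7) after DC-depleted pIUT. The recipient uninjected library had the lowest share, and its interval did not overlap those of the maternal uninjected and the recipient DC-depleted pIUT libraries. The 2 uninjected libraries held 43 of the 57 recipient uninjected clonotypes in common, so their intervals are not independent. With 0 lambda among 8 clonotypes, a lambda share of up to 37.5% could go unseen in maternal pIUT.

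As a ratio of kappa to lambda clonotypes these numbers came to 13.1 in maternal uninjected cells, 6.50 after mIUT and 9 after DC-depleted pIUT, and in recipient cells to 4.70 in uninjected pups, 10.3 after mIUT, 13.6 after pIUT and 20.2 after DC-depleted pIUT. The 2 lambda clonotypes of maternal mIUT had the same CDR3 under 2 J calls, with 489 and 8 reads, so that ratio is uncertain. By reads the ratio lay in a narrower range, from 5.52 in maternal mIUT to 12.3 in recipient pIUT. The recipient uninjected library, the lowest by clonotypes, was at 11.7 by reads, so the weight given to a clonotype changed its place. In the gene table the count of Igkc over the summed counts of Iglc1, Iglc2 and Iglc3, which are not corrected for length and of which Iglc2 and Iglc3 are near-identical copies, was 3.70 in maternal uninjected cells, 2.40 after mIUT, 23.3 after pIUT and 2.83 after DC-depleted pIUT. In recipient cells this count ratio was 4.33, 3.01, 4.21 and 4.89 for uninjected, mIUT, pIUT and DC-depleted pIUT. Maternal pIUT, without a lambda clonotype, had 0 counts of Iglc1 and Iglc2 and 47 of Iglc3 against 1095 of Igkc.

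Lambda clonotypes were far less often productive than kappa clonotypes, where productive means a CDR3 in frame without a stop codon. Over all libraries 77 of 190 lambda clonotypes (40.5%) and 2055 of 2561 kappa clonotypes (80.2%) were productive. Kappa was at 80.04% in the maternal uninjected library (77.8 to 82.1), 81.5% after DC-depleted pIUT (69.2 to 89.6), and in recipient cells at 89.4% (77.4 to 95.4), 92.5% (86.8 to 95.9), 84.8% (80.5 to 88.2) and 75.2% (71.7 to 78.5) in uninjected, mIUT, pIUT and DC-depleted pIUT. Lambda was at 37.5% in the maternal uninjected library (28.8 to 47.1), 40% in recipient uninjected cells (16.8 to 68.7), 46.2% after mIUT (23.2 to 70.9), 44.0% after pIUT (26.7 to 62.9) and 36.7% after DC-depleted pIUT (21.9 to 54.5). In each of these 5 libraries the lambda interval lay under the kappa interval. In maternal DC-depleted pIUT 4 of 6 lambda clonotypes were productive, and in maternal mIUT 2 of 2, which had the same CDR3.

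All 113 non-productive lambda clonotypes were out of frame, as were 488 of the non-productive kappa clonotypes, while 18 others had a stop codon in frame. Productive rearrangements held a larger share of reads than of clonotypes in the 3 injected recipient libraries and in the maternal uninjected one, for both chains. They held 96.9% of kappa reads and 74.7% of lambda reads in the maternal uninjected library, whereas recipient libraries had 86.6% to 94.9% of kappa reads and 35.5% to 69.5% of lambda reads. Counted over productive clonotypes alone, the ratio of kappa to lambda was 27.9 in maternal uninjected cells, 3.5 after mIUT (7 to 2) and 11 after DC-depleted pIUT, and 10.5, 20.7, 26.3 and 41.5 in recipient uninjected, mIUT, pIUT and DC-depleted pIUT. The 2 lambda clonotypes of maternal mIUT had the same CDR3. The recipient order of the libraries was the same as with all clonotypes.

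Maternal mIUT had the lowest productive share, on few clonotypes. Of its kappa reads 47.2% and of its 13 kappa clonotypes 7 (53.8%, 29.1 to 76.8) were productive, an interval that overlapped those of maternal pIUT (6 of 8, 40.9 to 92.9), maternal DC-depleted pIUT (69.2 to 89.6) and recipient DC-depleted pIUT (71.7 to 78.5). The interval of maternal mIUT lay under that of maternal uninjected cells (77.8 to 82.1). It also lay under those of recipient uninjected (77.4 to 95.4), mIUT (86.8 to 95.9) and pIUT (80.5 to 88.2). Maternal mIUT was picked as the lowest library. Its largest clonotype, the IGKV8-21 join printed above, was out of frame at 29 nucleotides and held 847 of the 1449 non-productive kappa reads. Without it 68.3% of kappa reads were productive, still the lowest share of the 8 libraries. This clonotype was found in no other library. IGKV8-21 (chr6:70291879-70292456, minus strand) ends in the germline with the same bases, so the join keeps the whole V end and has lost 5 bases of the IGKJ2 start.

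The IGKV segments in use covered the whole locus. In all, 105 IGKV segments were found, 102 of them in the maternal uninjected library, 10 after mIUT, 8 after pIUT and 33 after DC-depleted pIUT, and 31, 53, 79 and 91 in recipient uninjected, mIUT, pIUT and DC-depleted pIUT. No segment dominated by clonotypes. In the maternal uninjected library the most used were IGKV17-121 with 40 of 1358 kappa clonotypes (2.95%, 2.17 to 3.99), IGKV19-93 with 36 and IGKV10-96 with 35. In recipient DC-depleted pIUT they were IGKV19-93 with 25 of 606 (4.13%, 2.81 to 6.02), then IGKV1-110 and IGKV6-23 with 21 each.

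IGKV1-135 led in recipient pIUT with 15 of 341 (4.40%, 2.68 to 7.13), ahead of IGKV1-110 and IGKV12-46 with 12 each, and in recipient mIUT with 8 of 134 (5.97%, 3.06 to 11.3), ahead of IGKV10-96 with 7 and IGKV6-15 with 6. It was the only segment found in all 8 libraries, and IGKV1-117 and IGKV4-70 were found in 7. Recipient uninjected cells used IGKV1-117 in 5 of 47 clonotypes, IGKV6-15 in 4, and IGKV1-110 and IGKV10-96 in 3 each. By reads the concentration there was greater, with IGKV1-117 at 21.9% and IGKV6-15 at 21.4% of kappa reads. Maternal DC-depleted pIUT had 8 of 54 clonotypes in IGKV19-93 (14.8%, 7.70 to 26.6), its most used segment, which had 2.65% (1.92 to 3.65) in the maternal uninjected library. Because the segment was picked as the highest of that library, the intervals of these shares were not compared. In maternal mIUT IGKV1-122, IGKV1-135 and IGKV12-46 had 2 of 13 clonotypes each, and in maternal pIUT the 8 clonotypes used 8 different segments.

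The large IGKV4 family was the most used family in the maternal uninjected library, with 361 of 1358 clonotypes (26.6%, 24.3 to 29.0). Its share was 21.4% (17.4 to 26.1) in recipient pIUT, 20.5% (17.4 to 23.9) in recipient DC-depleted pIUT and 17.2% (11.7 to 24.4) in recipient mIUT. IGKV4 was taken up after its values were seen, so the intervals of these shares were not compared. Use along the locus was measured by the distance of each V segment from IGKJ1. The median distance was 1417 kb both in the maternal uninjected library and for recipient DC-depleted pIUT, 1284 kb in recipient pIUT, 1146 kb in recipient mIUT and 1783 kb in recipient uninjected cells. Segments within 1000 kb of IGKJ1 made 36.2% (33.7 to 38.8) of clonotypes in maternal uninjected cells, and 38.3% (25.8 to 52.6), 44.8% (36.6 to 53.2), 40.8% (35.7 to 46.0) and 39.1% (35.3 to 43.0) in the recipient libraries in the order above, uninjected first, then mIUT, pIUT and DC-depleted pIUT. All 4 of these intervals overlapped that of maternal uninjected cells. Segments on the minus strand, which lie opposite to IGKJ1 and join it by inversion, made 63.3% (60.7 to 65.9) of kappa clonotypes in maternal uninjected cells and 57.4% to 66.4% in recipient libraries.

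**Figure D2:**
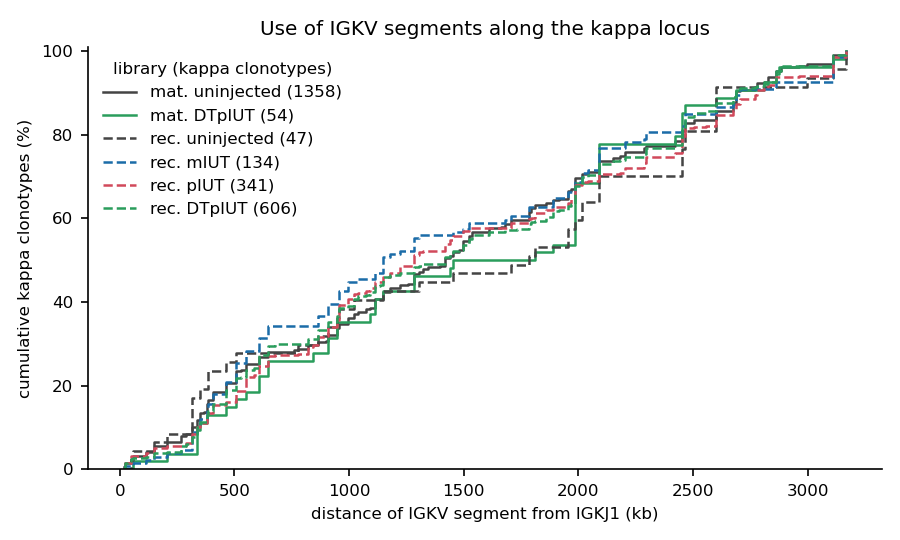
Cumulative share of kappa clonotypes (%) by the distance of their IGKV segment from IGKJ1 in GRCm39 (kb), for the 6 libraries with more than 40 kappa clonotypes; solid lines are maternal and dashed lines recipient libraries, and DTpIUT is DC-depleted pIUT. All lines rise along the whole locus and reach their midpoint between 1146 kb (recipient mIUT) and 1783 kb (recipient uninjected), and those of the smallest libraries (54 and 47 clonotypes) rise in coarse steps.

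The J segments of kappa were IGKJ1, IGKJ2, IGKJ4 and IGKJ5. No clonotype used IGKJ3, which is a non-functional segment in the mouse. In the maternal uninjected library IGKJ1 had 391 of 1358 clonotypes (28.8%, 26.4 to 31.3), IGKJ5 372 (27.4%), IGKJ2 358 (26.4%) and IGKJ4 237 (17.5%). IGKJ1 was the most used in recipient mIUT (34.3%, 26.8 to 42.7), pIUT (33.1%, 28.4 to 38.3) and DC-depleted pIUT (33.3%, 29.7 to 37.2). In recipient uninjected cells IGKJ2 led with 22 of 47 (46.8%, 33.3 to 60.8), and its share in the maternal uninjected library was 26.4% (24.1 to 28.8). Because IGKJ2 was picked as the highest in recipient uninjected cells, these intervals were not compared. IGKJ2 also led in maternal DC-depleted pIUT, with 18 of 54 (33.3%, 22.2 to 46.6), where IGKJ1 had 16. IGKJ4 was the least used or shared the lowest place in every library with more than 40 kappa clonotypes. Across all libraries 374 pairs of an IGKV and an IGKJ segment were found, with a mean of 4.92 distinct clonotypes each, and IGKV19-93 with IGKJ1 had the most, 25.

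The lambda locus of the mouse is small and lies in the order Iglv2, Iglv3, Iglj2, Iglj4, Iglv1, Iglj3 and Iglj1 on the minus strand of chromosome 16, each J with its own constant gene. IGLV1 made 134 of the 190 lambda clonotypes (70.5%, 63.7 to 76.6), IGLV2 46 and IGLV3 10. Of the IGLV1 clonotypes 125 joined to IGLJ1 or IGLJ3, the J segments downstream of it, and of the IGLV2 clonotypes 25 joined to IGLJ2. All 91 IGLJ1 clonotypes with a constant call had IGLC1, all 37 of IGLJ2 had IGLC2, and 53 of 54 of IGLJ3 had IGLC3, whereas both IGLJ4 clonotypes with a constant call had IGLC1.

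Most IGLV2 and IGLV3 clonotypes were found in uninjected cells, 46 of 56. IGLV1 made 59.6% (50.01 to 68.5) of lambda clonotypes in maternal uninjected cells, with 34 of 104 in IGLV2 and 8 in IGLV3, and 6 of 10 in recipient uninjected cells with the other 4 in IGLV2. It made 11 of 13 in recipient mIUT, 20 of 25 after pIUT (80%, 60.9 to 91.1) and 27 of 30 after DC-depleted pIUT (90%, 74.4 to 96.5), and 6 of 6 and 2 of 2 in maternal DC-depleted pIUT and mIUT. The interval of recipient DC-depleted pIUT lay above that of maternal uninjected cells, and the interval of recipient pIUT overlapped it. By reads IGLV1 stood at 61.9% of lambda reads in maternal and 54.0% in recipient uninjected cells and 84.6% to 96.0% in the injected recipient libraries. By J segment, IGLJ2 made 28 of 104 lambda clonotypes in maternal uninjected cells and 3 of 10 in recipient uninjected cells, against 2 of 13, 4 of 25 and 2 of 30 in the injected recipient libraries. IGLJ3 made 27 of 104 in maternal uninjected cells, 0 of 10 in recipient uninjected cells, and 4 of 13, 12 of 25 and 10 of 30 in recipient mIUT, pIUT and DC-depleted pIUT.

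Joining by deletion needs V upstream of J, and 9 lambda clonotypes were assigned as joins of IGLV1 to IGLJ2 (6) or IGLJ4 (3), which lie upstream of it. They held 103 reads in all. Of these 9, the CDR3 of 8 was also present in the same library under another call that fits the order of the locus, with 59 to 5167 reads. The 8 include 1 of the 2 lambda clonotypes of maternal mIUT. In 4 of the 8 the other call had IGLV2 in place of IGLV1 and the same J segment, and in 4 it had the same V and another J segment, so both calls are uncertain for such clonotypes. The germline CDR3 ends of IGLV1 and IGLV2 are shown for their likeness.
IGLV1 end: tgtgctctatggtacagcaaccatttc
IGLV2 end: tgtgctctatggtacagcacccatttc

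CDR3 length was nearly fixed. Of 2055 productive kappa clonotypes 1578 had a CDR3 of 33 nucleotides, which is 11 codons with the conserved cysteine and phenylalanine counted in, 258 had 30 and 149 had 36. The mean length was 32.9 ± 2.03 nucleotides (SD over 1087 clonotypes) in the maternal uninjected library and 32.3 ± 1.93 (44 clonotypes) in maternal DC-depleted pIUT. It was 32.8 ± 0.782 (42), 32.4 ± 1.68 (124), 32.9 ± 1.42 (289) and 32.8 ± 1.72 (456) in recipient uninjected, mIUT, pIUT and DC-depleted pIUT. All 7 productive kappa clonotypes of maternal mIUT and all 6 of pIUT had 33 nucleotides. The share at 33 nucleotides was 74.98% (72.3 to 77.5) in maternal uninjected cells and 92.9% (81.0 to 97.5) in recipient uninjected cells. It was 79.8%, 81.7% and 75.2% in recipient mIUT, pIUT and DC-depleted pIUT. The intervals of the 2 uninjected libraries did not overlap. They are not independent, since 43 of the 57 light-chain clonotypes of the recipient library were also in the maternal one.

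Lambda had the same modal length, with 61 of 77 productive clonotypes at 33 nucleotides. Its out-of-frame clonotypes sat on either side of this peak, 38 at 34 nucleotides, 26 at 32, 17 at 31 and 11 at 35. Joins of IGLV1 to IGLJ1 or IGLJ3 accounted for 77 of the 113 non-productive lambda clonotypes, and 61.6% of such joins (77 of 125) were non-productive. Several of them recurred between libraries. All 9 lambda clonotypes found in at least 4 libraries were joins of IGLV1 or IGLV2, and the most widely found joins of IGLV1 to IGLJ1 and to IGLJ3 are printed here with 2 that are out of frame, to show how the point of joining shifts by a base or a few.
IGLV1 with IGLJ1, 33 nucleotides, 7 libraries: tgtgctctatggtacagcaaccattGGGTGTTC
IGLV1 with IGLJ1, 33 nucleotides, 5 libraries: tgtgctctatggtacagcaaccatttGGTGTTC
IGLV1 with IGLJ3, 33 nucleotides, 4 libraries: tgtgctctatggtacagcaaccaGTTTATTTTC
IGLV1 with IGLJ1, 34 nucleotides, out of frame, 5 libraries: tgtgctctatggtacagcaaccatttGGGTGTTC
IGLV1 with IGLJ1, 32 nucleotides, out of frame, 4 libraries: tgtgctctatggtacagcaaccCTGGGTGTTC

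**Figure D3:**
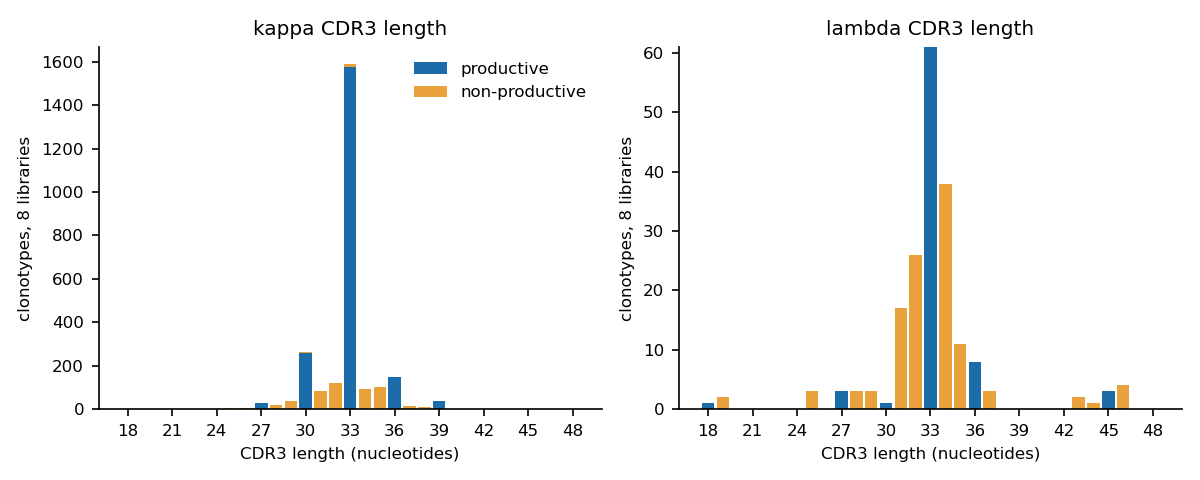
Number of kappa (left) and lambda (right) clonotypes of the 8 libraries together by CDR3 length in nucleotides, productive (blue) stacked under non-productive (orange). Both chains peak at 33 nucleotides, and the non-productive lambda clonotypes flank that peak; 5 kappa clonotypes of the maternal uninjected library fall outside the 18 to 48 nucleotides drawn.

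Counted over all clonotypes, bases that neither segment accounts for had their highest share in the maternal uninjected library. There 237 of 1462 light-chain clonotypes had at least 1 inserted base between V and J (16.2%, 14.4 to 18.2), and 167 of the 237 had 1 to 3. The share was 8.77% (3.80 to 18.9) in recipient uninjected cells, 4.76% (2.33 to 9.50) after mIUT, 5.46% (3.56 to 8.29) after pIUT and 7.86% (6.01 to 10.2) after DC-depleted pIUT. The intervals of the 3 injected recipient libraries lay under that of maternal uninjected cells. In the injected maternal libraries 1 of 15, 1 of 8 and 6 of 60 clonotypes had inserted bases after mIUT, pIUT and DC-depleted pIUT, with intervals that overlapped it. Among clonotypes of at least 10 reads the share was 11.8% (10.1 to 13.7) in maternal uninjected cells, 1 of 45 (2.22%, 0.393 to 11.6) in recipient uninjected cells, and 0 of 34 (0 to 10.2), 3.23% (1.49 to 6.86) and 3.03% (1.30 to 6.90) in recipient mIUT, pIUT and DC-depleted pIUT. It was 1 of 11 (9.09%), 1 of 7 (14.3%) and 2 of 36 (5.56%) in the injected maternal libraries in the same order, so the maternal uninjected share was no longer the highest, and their intervals overlapped its own. The intervals of both recipient pIUT libraries stayed under that of maternal uninjected cells, and the intervals of recipient mIUT and recipient uninjected cells overlapped it.

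A CDR3 was counted as germline when it had no inserted base and its V and J parts were found in the GRCm39 segments. This held for 53.1% (50.6 to 55.7) of clonotypes in maternal uninjected cells, 59.6% (46.7 to 71.4) in recipient uninjected cells and 79.6% (72.4 to 85.3), 71.9% (67.0 to 76.2) and 70.4% (66.8 to 73.9) in recipient mIUT, pIUT and DC-depleted pIUT. In maternal DC-depleted pIUT it held for 73.3% (61.0 to 82.9). The reference is of B6 origin, as the maternal cells are, whereas recipient cells carry BALB/c alleles as well, so allelic differences can lower the germline share in recipient cells. Productive kappa joins of maternal uninjected cells had lost a mean of 2.50 ± 2.94 bases (SD over joins) from V and 1.42 ± 1.49 from J. The recipient means were 2.01 to 2.67 from V, on both sides of the maternal one, and 0.935 to 1.21 from J, lower in all 4 recipient libraries. The J end was untrimmed in 38.1% of these joins in maternal uninjected cells and in 30.95% to 51.6% in recipient libraries.

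Upstream of CDR3, mismatches to the MiXCR reference were counted from framework 1 to the start of CDR3, where at least 100 bases of V were covered. Such mismatches were found in 184 of 1163 kappa clonotypes (15.8%, 13.8 to 18.03) in maternal uninjected cells, 6 of 41 (14.6%, 6.88 to 28.4) in recipient uninjected cells, 7 of 88 (7.95%, 3.91 to 15.5) after mIUT, 21 of 261 (8.05%, 5.32 to 11.99) after pIUT and 31 of 354 (8.76%, 6.24 to 12.2) after DC-depleted pIUT. Most V regions in every library were thus identical to the reference over the bases covered. The intervals of both recipient pIUT libraries lay under that of maternal uninjected cells. Among clonotypes of at least 10 reads the share was 14.2% (12.3 to 16.4) in maternal uninjected cells, 4 of 38 (10.5%, 4.17 to 24.1) in recipient uninjected cells, 1 of 29 (3.45%, 0.611 to 17.2) in recipient mIUT, 5.81% (3.19 to 10.4) in recipient pIUT and 6.94% (3.82 to 12.31) in recipient DC-depleted pIUT. Of these recipient libraries only pIUT then had an interval under that of maternal uninjected cells. The injected maternal libraries had 1 of 10, 1 of 7 and 4 of 30 such clonotypes with a mismatch after mIUT, pIUT and DC-depleted pIUT, with intervals that overlapped it. The median length covered was 261 bases in maternal uninjected cells and 218 and 194.5 in the 2 recipient pIUT libraries, and per 1000 bases there were 4.42 mismatches in maternal uninjected cells against 1.87 and 1.62. Somatic hypermutation, alleles absent from the reference and wrong V calls cannot be told apart in these values.

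Light-chain clonotypes recurred between libraries more often than those of the other receptor chains. A clonotype was counted as the same where the V segment, the J segment and the CDR3 nucleotides were identical. Of 1968 distinct light-chain clonotypes, 468 were found in 2 or more libraries, namely 280 in 2, 108 in 3, 53 in 4, 22 in 5, 4 in 6 and 1 in 7. By the same match 438 of 1840 kappa (23.8%, 21.9 to 25.8) and 30 of 128 lambda clonotypes (23.4%, 16.9 to 31.5) were shared, against 14 of 3113 heavy-chain (0.45%, 0.268 to 0.753), 95 of 6573 TCR beta (1.45%, 1.18 to 1.76) and 6 of 1078 TCR alpha clonotypes (0.557%, 0.255 to 1.21). TCR gamma, at 30 of 255 (11.8%, 8.37 to 16.3), and TCR delta, at 22 of 363 (6.06%, 4.04 to 9.01), lay between. The kappa and lambda intervals lay above those of all 5 other chains. Without both uninjected libraries 204 of 938 light-chain clonotypes were shared among the 6 injected ones, 187 of 891 kappa (20.99%, 18.4 to 23.8) and 17 of 47 lambda (36.2%, 23.97 to 50.5), against 11 of 957 heavy-chain (1.15%, 0.643 to 2.05) and 30 of 243 TCR gamma clonotypes (12.3%, 8.79 to 17.1), and the light-chain intervals still lay above those of the other 5 chains. Out-of-frame lambda clonotypes were shared as well, 19 of 80, while 32 of 466 non-productive kappa clonotypes were.

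The shared joins were simple ones. Of the clonotypes found in a single library 18.5% (16.6 to 20.6) had inserted bases and 44.9% (42.4 to 47.4) were germline throughout. Of those in 2 or more libraries 4.49% (2.95 to 6.76) had inserted bases and 80.3% (76.5 to 83.7) were germline, and of the 80 in 4 or more libraries 2 had inserted bases and 73 were germline. The shared clonotypes were also more often productive, 89.1% (85.9 to 91.6) against 67.0% (64.6 to 69.3), and more often of 33 nucleotides, 75.9% (71.8 to 79.5) against 45.2% (42.7 to 47.7). Lambda made 6.41% (4.53 to 9.004) of the shared and 6.53% (5.39 to 7.90) of the other clonotypes. Among the 6 injected libraries alone 1.47% (0.501 to 4.23) of the shared and 10.5% (8.48 to 12.9) of the other clonotypes had inserted bases, 89.2% (84.2 to 92.8) and 59.8% (56.2 to 63.3) were germline, and 91.7% (87.1 to 94.7) and 68.0% (64.5 to 71.3) productive. Of the same clonotypes 78.9% (72.8 to 83.96) and 48.9% (45.3 to 52.5) had 33 nucleotides. Lambda made 8.33% (5.27 to 12.9) of the shared and 4.09% (2.88 to 5.77) of the other clonotypes there, with intervals that overlapped. These lambda shares lay further apart than those with the uninjected libraries included.

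Large clonotypes recurred more often than small ones, though most of the 444 recurring clonotypes of the maternal uninjected library lay outside its 100 largest. Of the 100 largest light-chain clonotypes of the maternal uninjected library (697 reads or more) 94 were found in at least 1 other library, of the next 400 (85 to 696 reads) 212 were, and of the remaining 949 (85 reads or fewer) 138 were. Recipient DC-depleted pIUT held 82, 157 and 89 of the clonotypes of these 3 size classes, recipient pIUT 71, 103 and 41, and recipient mIUT 42, 52 and 15. Recipient uninjected cells held 18, 16 and 9. Read counts of a library's shared clonotypes were higher than those of its private ones, with medians of 206.5 and 33 reads in maternal uninjected cells, 438.5 and 6 in recipient uninjected cells and 12 and 6 in recipient pIUT.

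The maternal uninjected library, which holds 53.1% of all light-chain clonotypes, took part in most sharing, 444 of the 468. Without it 210 of 963 distinct clonotypes were found in 2 or more libraries, and without the recipient uninjected library 455 of 1955 were. It held 43 of the 57 clonotypes of recipient uninjected cells (75.4%), 109 of 147 of recipient mIUT (74.1%), 215 of 366 of pIUT (58.7%) and 328 of 635 of DC-depleted pIUT (51.7%). Of the maternal libraries it held 7 of 15 clonotypes of mIUT, 5 of 8 of pIUT and 36 of 60 of DC-depleted pIUT (60%). As shares of its own 1449 distinct clonotypes these were 2.97%, 7.52%, 14.8% and 22.6% for the 4 recipient libraries in that order, and 0.483%, 0.345% and 2.48% for the maternal ones. The maternal and recipient libraries of the same treatment shared 3 clonotypes after mIUT, 4 after pIUT and 29 after DC-depleted pIUT, which is 20%, 50% and 48.3% of the maternal library. Sharing was not limited to libraries of 1 treatment. Maternal mIUT shared 6 clonotypes with recipient DC-depleted pIUT (40%), maternal pIUT 4 with the same library, and maternal DC-depleted pIUT 27 with recipient pIUT (45%). Maternal mIUT and pIUT shared none.

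The clonotypes shared by the 2 uninjected libraries included the largest of each. The 43 shared clonotypes held 40358 of the 42504 light-chain reads of recipient uninjected cells (94.95%), and 19 of its 20 largest clonotypes were in the maternal uninjected library. In 23 of the 43 the recipient library had more reads than the maternal. Of the clonotypes they shared with the maternal uninjected library, maternal mIUT had more reads in 4 of 7, maternal pIUT in 2 of 5, maternal DC-depleted pIUT in 0 of 36, and recipient mIUT, pIUT and DC-depleted pIUT in 0 of 109, 4 of 215 and 1 of 328, numbers that depend on each library's total of light-chain reads. By heavy chain these 2 libraries shared 2 of the 54 clonotypes of recipient uninjected cells. The first had 49 reads in maternal and 847 in recipient cells, the other 1033 and 982. Passage of cells or reads between the libraries was not tested.

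**Figure D4:**
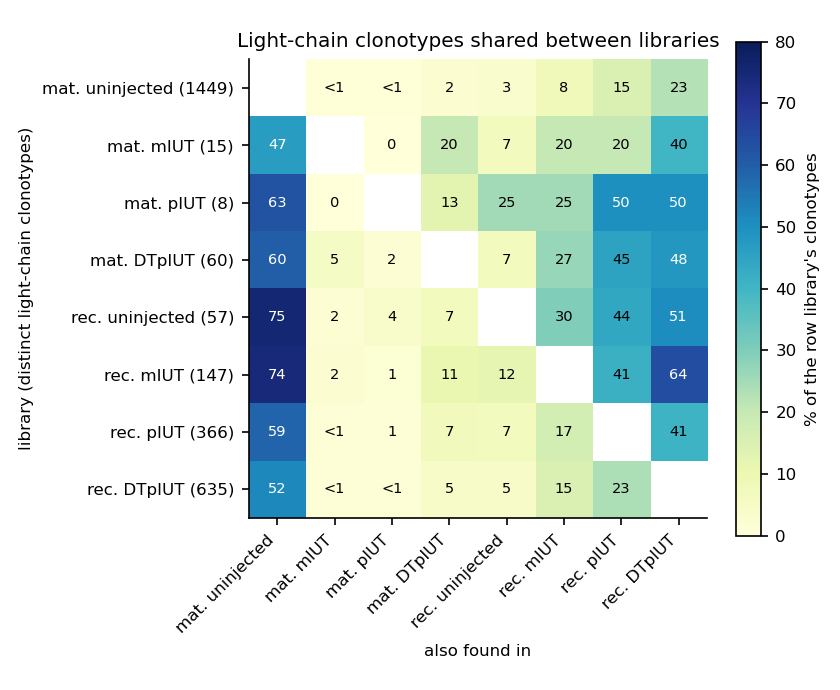
Percentage of each row library's distinct light-chain clonotypes (number in brackets) that were also found in the column library; colour gives the same percentage, mat. and rec. stand for maternal and recipient, and DTpIUT is DC-depleted pIUT. The first column shows that 47% to 75% of the clonotypes of every other library were also in the maternal uninjected library (rounded to whole percentages).

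The most widely shared clonotype was the IGLV1 join to IGLJ1 printed above as the 7-library form. It had 3962 reads in maternal uninjected cells (1.43% of light-chain reads), 489 after mIUT (15.1%), 0 after pIUT and 21 after DC-depleted pIUT (2.73%). In recipient cells it had 367 reads in uninjected pups (0.863%), 30 after mIUT (2.81%), 147 after pIUT (2.49%), where it was the largest, and 102 after DC-depleted pIUT (1.64%). Its place was thus high in most libraries whatever their size.

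Of the 4 clonotypes in 6 libraries, the IGKV1-117 join to IGKJ2 was the largest in both uninjected libraries, with 8235 reads in maternal (2.97%) and 7017 in recipient cells (16.5%). It had 8 reads in maternal DC-depleted pIUT, 10 in recipient mIUT, 6 after pIUT, where it ranked 246, and 74 after DC-depleted pIUT, and 0 in maternal mIUT and pIUT. The IGKV1-135 join to IGKJ1 had 2044 reads in maternal uninjected cells, 313 in maternal pIUT (29.98% of its light-chain reads), 1157 in recipient uninjected cells, and 35, 61 and 27 in recipient mIUT, pIUT and DC-depleted pIUT. It was absent from the other 2 maternal libraries. The joins of IGKV10-96 to IGKJ2 and of IGKV8-19 to IGKJ4 complete the 4.
IGKV10-96 with IGKJ2: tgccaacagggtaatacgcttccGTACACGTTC
IGKV8-19 with IGKJ4: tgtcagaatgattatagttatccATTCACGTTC

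The IGKV10-96 join to IGKJ2 had 2012 reads in maternal uninjected cells, 26 in maternal DC-depleted pIUT, 399 in recipient uninjected cells, and 7, 65 and 114 in recipient mIUT, pIUT and DC-depleted pIUT. It ranked second in recipient DC-depleted pIUT, behind the IGKV10-96 join to IGKJ1 with 168 reads, and the V parts of their CDR3 are the same bases. The IGKV8-19 join to IGKJ4 had 735 reads in maternal uninjected cells, 319 after mIUT (9.84%) and 14 after DC-depleted pIUT. In recipient cells it had 0 reads in uninjected pups, 14 after mIUT, 13 after pIUT and 1 after DC-depleted pIUT. As a share of light-chain reads it was at 0.265% in maternal uninjected cells (rank 92) and at 1.31%, 0.22% and 0.0161% in recipient mIUT (rank 18), pIUT and DC-depleted pIUT.

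The 5 joins that complete the 10 most shared clonotypes were each found in 5 libraries, and are shown because the V part ends in the bases cc in all but that of IGKV19-93.
IGKV6-15 with IGKJ2: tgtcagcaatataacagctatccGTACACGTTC
IGKV6-32 with IGKJ5: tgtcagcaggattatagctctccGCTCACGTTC
IGKV6-32 with IGKJ2: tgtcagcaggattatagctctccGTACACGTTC
IGKV14-111 with IGKJ2: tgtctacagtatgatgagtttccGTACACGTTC
IGKV19-93 with IGKJ2: tgtctacagtatgataatctGTACACGTTC

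The IGKV19-93 join has a CDR3 of 30 nucleotides and the others have 33. The IGKV6-15 join to IGKJ2 had 5539 reads in maternal and 2031 in recipient uninjected cells, 0 in the injected maternal libraries, and 26, 79 and 71 in recipient mIUT, pIUT and DC-depleted pIUT. The IGKV14-111 join had 1863 and 545 reads in the 2 uninjected libraries and 15, 110 and 33 in the injected recipient ones. The other 3 were missing from recipient uninjected cells and were found in maternal DC-depleted pIUT, where the IGKV6-32 join to IGKJ5 was the largest clonotype with 39 reads, that of IGKV19-93 had 27 and that of IGKV6-32 to IGKJ2 had 16. In maternal uninjected cells these 3 had 1104, 949 and 834 reads.

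**Figure D5:**
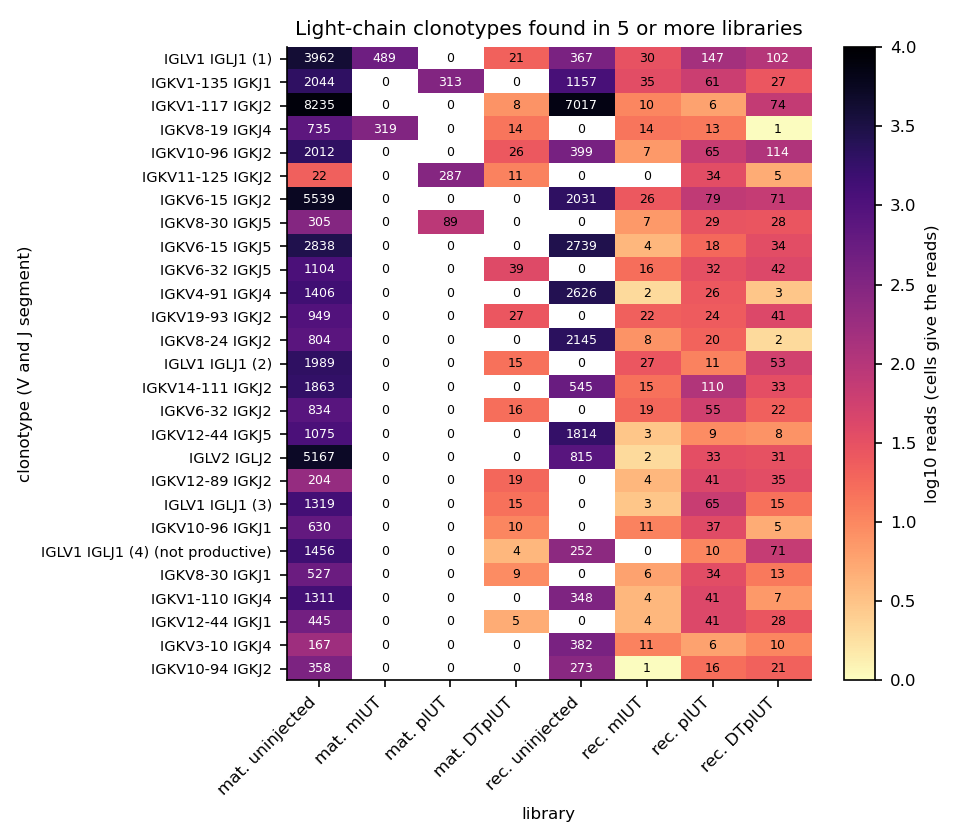
Reads of the 27 light-chain clonotypes found in 5 or more libraries (rows, named by V and J segment, with a number where the same segments recur) in each library (columns; mat. and rec. stand for maternal and recipient, DTpIUT for DC-depleted pIUT); colour is log10 reads and white marks 0. All 27 were in the maternal uninjected library, and 1 of them, an IGLV1 join to IGLJ1, is not productive.

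Genes that accompany light-chain joining were read from the gene table. The surrogate light chain, made of Vpreb1 or Vpreb2 and Igll1, pairs with the heavy chain in pre-B cells before a kappa or lambda chain is made. In the maternal uninjected library, which had the most light-chain clonotypes, Vpreb1, Vpreb2, Igll1, Rag1 and Rag2 all had 0 counts, and the same 5 genes had 0 counts in recipient uninjected cells. In maternal mIUT Igll1 had 2480 counts (55.7 CPM), Vpreb1 1739 (39.03 CPM) and Vpreb2 1414 (31.7 CPM), beside the 15 light-chain clonotypes described above. Igll1 had 329 counts in maternal pIUT and 117 after DC-depleted pIUT, and 43, 17 and 1917 in recipient mIUT, pIUT and DC-depleted pIUT. Vpreb1 had 109 and 102 counts in these 2 maternal libraries and 0, 24 and 1016 in the recipient ones. Vpreb1 and Vpreb2 are near-identical copies, so the division of counts between them is uncertain.

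Rag1, a subunit of the recombinase in precursors of B and of T cells, had 13, 218 and 108 counts in maternal mIUT, pIUT and DC-depleted pIUT and 508, 2166 and 431 in the recipient libraries in the same order. Rag2, the other subunit, had 244, 0 and 86 counts, and 156, 1328 and 547. The recipient pIUT library, highest in Rag1, also had the highest summed level of the T-cell genes Cd3d, Cd3e, Cd3g, Cd4, Cd8a and Lck, 3795 CPM against 137 to 1688 in the other 7 libraries, so these counts cannot be assigned to B-cell precursors. The 2 uninjected libraries thus had light-chain clonotypes without a count for the surrogate light chain or the recombinase, and each injected library had counts of Igll1 and Rag1.

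IGKV segments themselves were also in the gene table, with 160 segments listed. In maternal uninjected cells 103 had more than 3 counts and 99 of these had a clonotype. In recipient DC-depleted pIUT 74 had more than 3 counts and 72 of these had a clonotype, and in maternal DC-depleted pIUT 17 of 18. Across segments, estimated counts and clonotype reads had a Spearman's rho of 0.952 in maternal uninjected cells and 0.80 to 0.941 in the other libraries, given as a description, since both values come from the same RNA of a library.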

How the data were processed

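RNA of sorted, pooled cells was sequenced in 8 libraries (Illumina HiSeq), 1 for each origin and treatment. The authors ran MiXCR for random fragments of mouse RNA and deposited a clonotype table per library, with reads per clonotype as the clone count and no molecular identifiers; the version is not given in the sources used here. The authors also deposited estimated counts per gene on GRCm39, not normalized, which were rounded to whole numbers; all 8 columns belong to a sample and 0 were left out. Of the gene identifiers, 97.99% matched the GENCODE annotation used for positions.

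Chains were taken from the best J hit and segments from the best hits. Inserted bases are those between the V and J alignments. Intervals are at the 95% level by Wilson's method; a count of 0 allows up to 3 counts. Parsing was tested on simulated data. Clonotypes named were the largest of each library and the 10 found in the most libraries (ties by rank of clone share), segments the 3 most used IGKV of each library and all IGLV and J segments. The members, lists and rules were chosen with earlier results of these data known. IGKV4, IGKV4-70, the lambda joins in 4 or more libraries and the upstream joins were chosen after their values were seen. Alternatives were other weights, count minimums, matches, equal depth, edgeR 4.0.16 TMM factors and DESeq2 1.42.0 size factors (R 4.3.3). Python 3.11.15 with pandas 2.3.3, numpy 2.4.6, scipy 1.17.1 and matplotlib 3.10.9 was used. A B-cell marker of the list is not reported here and was left out of its sum.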

Additional observations from a re-analysis of the deposited data

Results flagged for a closer look

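Relative to the uninjected library of the same origin, 3 of 12 light-chain measures compared went one way in all 3 injected maternal libraries and the other way in all 3 injected recipient libraries. The other 9 did not, among them the kappa, productive and germline shares, inserted bases, CDR3 length and Igkc. The 3 are not separate results, since the number of clonotypes bears on the other two. With 1 library for each condition this difference was not tested. The number of light-chain clonotypes fell by 1447 in maternal cells and was higher by 309 in recipient cells, each the median of 3 differences. The number of IGKV segments in use fell by 92 in maternal and was higher by 48 in recipient cells. The share of reads in the 10 largest light-chain clonotypes was higher by 84.1 percentage points in maternal cells, where 2 libraries had only 15 and 8 clonotypes, so that their number nearly fixed this share, and fell by 44.0 in recipient cells. The summed level of 5 B-cell markers was lower in all 6 injected libraries than in the uninjected library of the same origin, though Pax5 alone was not, and its part in these differences was not tested.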

How the results depend on the processing

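With 1 library per condition no library could be left out within a group and no value has a replicate error. Maternal and recipient libraries of a treatment came from the same pool of pups, and no test of origin paired by pool was run. Of 151 values under alternatives 111 stayed within the counting interval of the value reported, or, for numbers of clonotypes, within 1.5 times of it. This leaves out 24 values of mean CDR3 length, for which the spread of single clonotypes is no measure of error and which lay between 0.769 below and 0.241 nucleotides above the means reported. Weighted by reads, the kappa share was 89.5% in maternal uninjected, 92.1% in recipient uninjected and 91.8% in recipient DC-depleted pIUT cells, and the productive share 94.5%, 90.2% and 84.1% in these and 89.4% in recipient pIUT. Among productive clonotypes the kappa share was 96.5% in maternal uninjected cells and 91.3%, 95.4%, 96.3% and 97.6% in recipient uninjected, mIUT, pIUT and DC-depleted pIUT, and at 10 or more reads 92.1% in the last. At equal depth there were 347 clonotypes in maternal uninjected and 339 in recipient DC-depleted pIUT cells. With non-productive clonotypes included, mean kappa CDR3 length in maternal mIUT was 32.2 nucleotides. In maternal pIUT the first of 8 equally used IGKV segments held 0.0958% of reads and 0% at 2 or more reads. With TMM factors the Igkc level was 6068, 75.5, 21.6 and 19.2 CPM in maternal uninjected, mIUT, pIUT and DC-depleted pIUT and 30.3, 112 and 105 in the injected recipient libraries in that order. With DESeq2 factors it was 6064, 77.8, 24.8 and 19.8, and 848, 28.1, 103 and 99.3 with recipient uninjected cells first, so the order of the 2 recipient pIUT libraries, and that of maternal pIUT and recipient mIUT, changed with both. Matching by nucleotides alone gave 451 shared clonotypes, by amino acids alone 410, and without the maternal uninjected library, an alternative chosen after seeing the data like the limit of 10 reads on inserted bases and mismatches, 210, and without both uninjected libraries, likewise, 204.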
